A study of Mus musculus with 3 samples.

Results

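The T cell receptor signalling machinery was followed as a set of 47 genes, taken by name from the gene tables of 3 RNA-seq libraries of mouse regulatory T cells. All 47 were found once each among the 55536 annotated genes of those tables. They were placed in 5 groups by role: 9 receptor chains and surface co-receptors, 5 kinases, 12 adaptors, 8 phosphatases and related proteins, and 13 genes of the branch that leads from phospholipase to Ras, protein kinase C and calcium, called the Ras/PKC branch from here on. The cells were described by their depositors as inflammation-experienced regulatory T-cells, a primary cell preparation from 1 male adult mouse, aged 16 weeks, of the strain Foxp3GFP-DTRCD4CreERT2R26tdTomato. The 3 polyA-selected libraries are technical replicates 1, 2 and 3 of biological replicate 1, so every SD given is a spread between libraries of 1 animal and says nothing of the spread between animals. There was a single group and no untreated group, and the sources used here do not say what the inflammatory stimulus was, when it was given or which organ the cells came from. All 3 libraries share the engineered Foxp3, CD4 and R26 alleles named in the strain.

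When a T cell receptor binds its ligand, the kinase Lck phosphorylates tyrosines in the tails of the CD3 chains and of CD247, and Zap70 docks on them. Zap70 then phosphorylates the membrane scaffold Lat, on which phospholipase and further adaptors assemble, and the lipid and calcium messengers made there switch on Ras, protein kinase C theta and calcineurin. Phosphatases, lipid kinases and Ras GTPase activators limit these steps, and regulatory T cells depend on the receptor signal for their suppressive state.

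Each tail tyrosine of the receptor complex lies in an immunoreceptor tyrosine-based activation motif, and the coding bases of those motifs are shown first because they are where the kinases of the set act on the receptor chains. Motifs were searched in the leading transcript of each gene as a tyrosine codon, 2 codons of any kind, a leucine or isoleucine codon, 6 to 8 further codons, and the same pattern again. The tyrosine codons and the leucine or isoleucine codons at the fixed places of that pattern are in capitals. Other codons for these amino acids within a motif are not. Each run is read 5′ to 3′ on the coding strand from the GENCODE M21 transcript sequences.
Cd3e motif 1: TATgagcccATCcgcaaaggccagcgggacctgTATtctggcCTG
Cd3g motif 1: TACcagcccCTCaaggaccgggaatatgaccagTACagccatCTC
Cd3d motif 1: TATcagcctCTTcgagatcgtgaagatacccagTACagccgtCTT
Cd247 motif 1: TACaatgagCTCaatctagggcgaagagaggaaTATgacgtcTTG
Cd247 motif 2: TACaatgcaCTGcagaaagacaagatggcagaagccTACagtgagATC
Cd247 motif 3: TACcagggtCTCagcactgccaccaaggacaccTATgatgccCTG
Cd3e, Cd3g and Cd3d held 1 motif each, and Cd247 held 3. The Cd3e motif covers codons 170 to 184 of 189, near the end of the protein, and the Cd247 motifs start at codons 72, 111 and 142 of 164. All 6 motifs cross an exon boundary in the genome. The spacing inside a motif, from the leading leucine or isoleucine codon to the trailing tyrosine codon, was 7 codons in 5 of them and 8 in the middle motif of Cd247.

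Every member was expressed. All 47 reached 1 TPM (a level scaled for transcript length and library depth) in each library, against 47.4% of the 22028 protein-coding genes. A mean of 100 TPM or more was reached by 24 members, against 7.89% of protein-coding genes. The median of the members' mean levels was 104 TPM, and together they took 1.23% of all TPM. Levels were far from even across the groups. Median levels were 573 TPM for the receptor group, 151 TPM for the kinases, 69.9 TPM for the adaptors, 62.7 TPM for the phosphatases and 49.2 TPM for the Ras/PKC branch. In counts of a second gene table, made with GENCODE M4 and not scaled for length, this order did not hold. In library 1 the kinase median there was 261 scaled CPM (counts scaled for library depth), that of Csk. The receptor median was 202, that of Cd3e. The receptor group alone summed to 6261 ± 405 TPM (SD, 3 libraries) of the 12315 ± 346 TPM of all members. In a bulk sample of this kind, fewer cells of a type and less RNA per cell cannot be told apart.

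**Figure D1:**
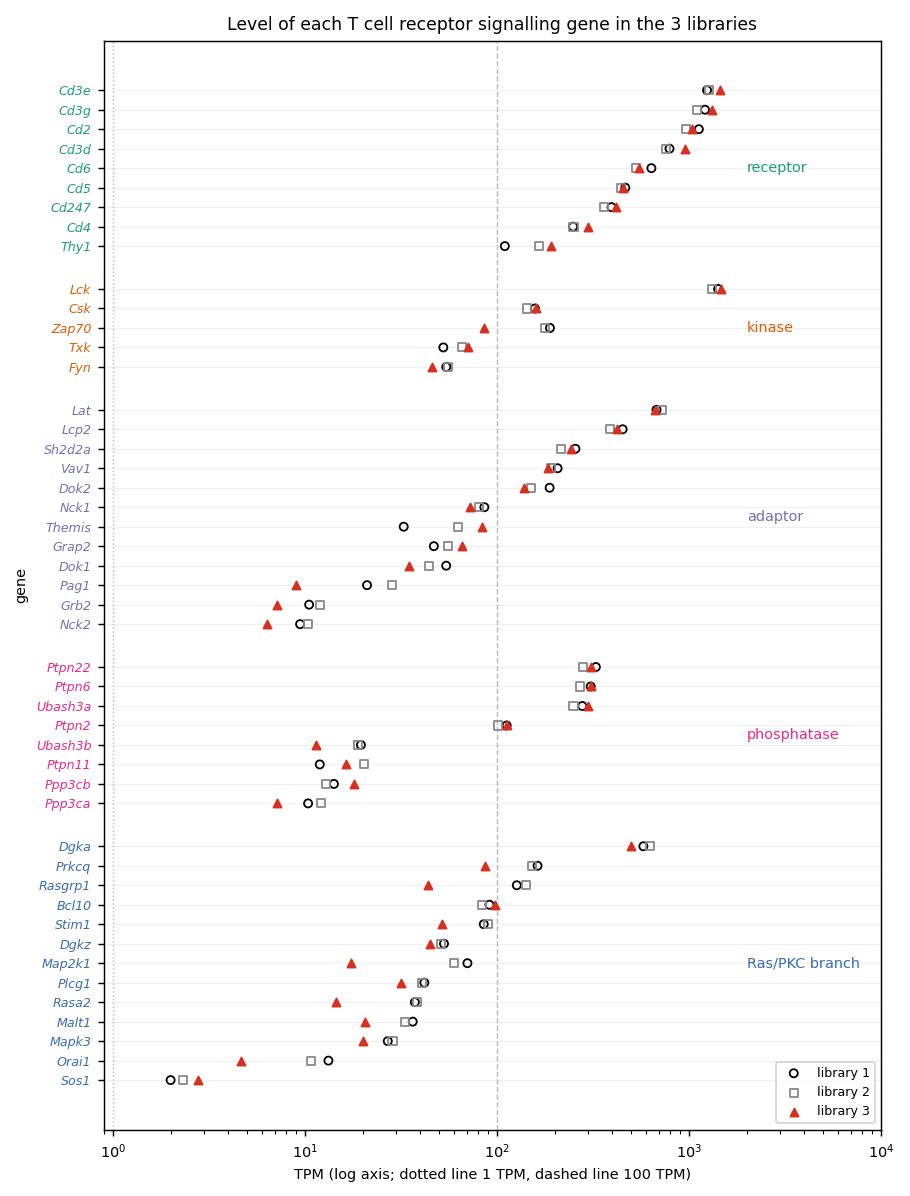
Level of each of the 47 genes in the 3 libraries, in TPM on a log axis, ordered within the 5 groups by mean level. Open circles, open squares and filled red triangles are libraries 1, 2 and 3. All 9 receptor genes lie right of the dashed line at 100 TPM, and 11 of the 13 Ras/PKC branch genes have library 3 as their lowest point.

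Among the receptor chains, Cd3e was highest, at 1243, 1273 and 1461 TPM in libraries 1, 2 and 3. Cd3g, its partner in one of the CD3 dimers of the complex, was measured at 1214, 1108 and 1314 TPM. Cd3d, the chain that pairs with Cd3e in the other dimer, stood at 793, 764 and 953 TPM. All 3 chains were highest in library 3, by at most 0.28 on the log2 scale against the mean of the other libraries. Their genes sit together on chromosome 9 (GRCm38): Cd3g at 44969572 to 44980431 on the minus strand, Cd3d at 44981786 to 44987339 on the plus strand and Cd3e at 44998740 to 45009627 on the minus strand. Cd3g and Cd3d are read away from each other with 1354 bases between them. Neither Cd3e nor Cd3d differed from Cd3g by the rule set for pairs of genes, with log2 ratios of 0.13 ± 0.09 and -0.54 ± 0.08 (SD, 3 libraries). That rule asks for a log2 ratio of (TPM + 1) with 1 sign in all 3 libraries, a mean over 2 SD and a mean over 1.

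Cd247, the zeta chain with 3 motifs, was measured at 395, 361 and 419 TPM. Cd3e exceeded it by 1.76 ± 0.09 on the log2 scale, 3.38-fold by mean TPM. The ratio was called on every scale but the counts of the M4 table, where it was 0.37. The co-receptor Cd4, which brings Lck to the complex, stood at 249.6, 251 and 298 TPM, and the log2 ratio of Cd3e to Cd4 was 2.31 ± 0.02. On expected counts (estimated read counts), which are not scaled for length, this ratio was 1.30 and still met the rule. On counts of the M4 table, also not scaled for length, it was -0.74, with the sign turned. Cd8a, the co-receptor chain of the other T cell lineage, lay between 0.87 and 1.24 TPM, and Cd4 exceeded it 262-fold by mean TPM.

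The other surface members were also abundant and, with the exception of Thy1, steady. Cd2, an adhesion and costimulatory receptor, was measured at 1127, 969 and 1039 TPM. The paired inhibitory receptors Cd6 and Cd5, neighbours on chromosome 19 with 50338 bases between them, stood at 638, 532 and 547 TPM and at 467, 444 and 456 TPM. Cd5 varied least of all members, by 2.47% of its mean. Thy1, a surface glycoprotein of T cells, was the lowest of the receptor group at 110, 167 and 191 TPM, and its lowest library was library 1. Its log2 deviation there from the mean of the other libraries was -0.80.

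Of the kinases, Lck was the most abundant member of the whole set in TPM. It was measured at 1420, 1319 and 1464 TPM (1401 ± 74.1, SD) and ranked 61st among protein-coding genes. In counts of the M4 table Dgka, Ptpn22, Cd6 and Vav1 stood above Lck in every library. In library 1 they were at 728, 629, 616 and 588 scaled CPM against 522 for Lck. Fyn, the other Src-family kinase that phosphorylates CD3 motifs, stood at 54.5, 55.8 and 45.8 TPM, so that Lck exceeded it by 4.73 ± 0.22 on the log2 scale, 26.9-fold by mean TPM. On counts of the M4 table that ratio was 2.26. Csk, which phosphorylates the inhibitory tail tyrosine of Lck, was at 158, 143 and 160 TPM. The log2 ratio of Lck to Csk was 3.18 ± 0.02 and nearly the same in each library, but 1.07 on counts of the M4 table. Pag1, the membrane adaptor that recruits Csk, was far lower and uneven, at 21.1, 28.6 and 8.96 TPM.

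Zap70, the kinase that binds the phosphorylated motifs, was measured at 189, 178 and 85.7 TPM. Library 3 stood apart, 2.30-fold below the mean of the other libraries in scaled counts. Syk, the relative of Zap70 that serves B cells, lay between 1.28 and 1.58 TPM. Zap70 exceeded it in every library, by 6.38, 6.11 and 5.22 on the log2 scale. Txk, a Tec-family kinase, was measured at 52.6, 66.0 and 70.8 TPM, with library 1 lowest.

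Among the adaptors, the scaffolds closest to the receptor were the highest in TPM. In counts of the M4 table Vav1 was higher, at 588, 606 and 615 scaled CPM against 509, 543 and 586 for Lcp2. Lat, the membrane scaffold phosphorylated by Zap70 (chromosome 7, 126363824 to 126369570), had levels of 678, 723 and 666 TPM. Lcp2, the cytosolic scaffold that joins it, was at 452, 388 and 423 TPM, and the pair did not meet the rule, with a log2 ratio of 0.71 ± 0.16. On counts not scaled for length the sign turned, to -0.41, and to -0.78 in the M4 table. Sh2d2a, an adaptor that binds Lck, stood at 257, 215 and 244 TPM. The libraries overlapped closely for these genes, with coefficients of variation of 4.35 to 8.81%.

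Vav1, an exchange factor that joins the Lat complex, was measured at 207, 191 and 185 TPM. Its relatives Vav2 and Vav3 stood at 5.77 and 7.74 TPM on average, 33.7-fold and 25.1-fold lower. Dok2, a docking protein that restrains signalling, was at 188, 150.3 and 139 TPM, above its relative Dok1 at 54.5, 44.3 and 34.9 TPM. Both Dok genes were highest in library 1 and lowest in library 3.

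Nck1, which links the receptor to the actin skeleton, was measured at 86.1, 81.1 and 72.7 TPM, against 9.45, 10.4 and 6.39 TPM for Nck2, the lowest adaptor. Grap2, the T cell adaptor that couples Lcp2 to Lat, stood at 46.97, 55.5 and 65.6 TPM. Its widely expressed relative Grb2, which brings Sos1 to Lat, was at 10.5, 12.0 and 7.14 TPM, 5.66-fold lower by mean. Themis, which tunes receptor signalling during selection and in mature cells, was measured at 32.7, 62.7 and 84.1 TPM. It was the adaptor with the largest spread between the libraries in scaled counts, 2.10-fold below the others in library 1.

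The phosphatase group fell into 4 genes above 100 TPM and 4 below 20 TPM. Ptpn22, which dephosphorylates Lck and Zap70, was measured at 328, 282 and 309 TPM. Ptpn6, the tyrosine phosphatase of blood cells that inhibitory receptors recruit, stood at 308, 272 and 310.5 TPM. Ubash3a, which holds back Zap70 signalling, was at 279, 251 and 299 TPM, and Ptpn2, which also acts on Lck, was at 113, 101 and 112 TPM. All 4 were lowest in library 2, with log2 deviations there of -0.14 to -0.20.

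Each of the lower genes is a relative of a higher one or a calcineurin subunit. Ptpn11, the broadly expressed relative of Ptpn6, was measured at 12.0, 20.3 and 16.4 TPM, 18.3-fold below Ptpn6 by mean. Ubash3b, the relative of Ubash3a, stood at 19.6, 18.9 and 11.5 TPM, 16.6-fold below. The calcineurin catalytic subunit genes Ppp3cb and Ppp3ca were at 14.2, 12.9 and 18.1 TPM and at 10.4, 12.2 and 7.20 TPM. In library 3 they went opposite ways in scaled counts, with log2 deviations of 0.26 and -0.34, and of 0.25 and -1.3 in the M4 table. After the adjustment for the highest-GC window described below both lay above 0, at 0.48 and 0.13. Their log2 ratio, Ppp3ca over Ppp3cb, was -0.57 ± 0.59 and was not called.

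The Ras/PKC branch began with a strong contrast in the enzymes of diacylglycerol, the lipid that recruits Rasgrp1 and protein kinase C theta. Dgka, a kinase that removes diacylglycerol, was the highest of the branch at 579, 625 and 499 TPM. Dgkz, which acts on the same lipid, stood at 53.05, 51.3 and 44.6 TPM, 11.4-fold lower by mean TPM. Plcg1, the phospholipase that makes the lipid, was at 41.9, 40.9 and 31.8 TPM, and its relative of B and myeloid cells, Plcg2, at 1.24 TPM on average. The counts of library 3 were lowest for Dgka, Dgkz and Plcg1. For Dgka the M4 table gave the opposite order, with library 3 at 829 scaled CPM (counts scaled for library depth) against 728 and 811.

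Rasgrp1, the exchange factor that diacylglycerol activates (chromosome 2, 117279993 to 117343001), had levels of 127, 142 and 44.0 TPM. Sos1, the exchange factor that Grb2 carries, was the lowest member of all at 2.00, 2.32 and 2.77 TPM. Rasgrp1 exceeded Sos1 by 5.42, 5.43 and 3.58 on the log2 scale, 44.1-fold by mean TPM. Rasa2, a GTPase activator that turns Ras off, was at 37.4, 38.2 and 14.6 TPM. Map2k1, a kinase of the cascade that Ras switches on (chromosome 9, 64185770 to 64253631), had levels of 70.3, 60.01 and 17.3 TPM, and Mapk3, its substrate, at 27.0, 28.6 and 20.1 TPM. In scaled counts Rasgrp1, Rasa2 and Map2k1 deviated in library 3 by -1.66, -1.03 and -2.08 on the log2 scale from the mean of libraries 1 and 2.

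Prkcq, protein kinase C theta, was measured at 163, 152 and 87.2 TPM, 5.60-fold above Prkcb by mean. Its downstream partners Bcl10 and Malt1, which signal to NF-kB, stood at 91.5, 84.1 and 97.4 TPM and at 36.5, 33.1 and 20.6 TPM. Bcl10 exceeded Malt1 by 1.60 ± 0.51 on the log2 scale, a ratio that was 0.59 and not called on counts not scaled for length. The calcium sensor Stim1 was at 85.5, 89.4 and 51.5 TPM, and the channel Orai1 at 13.3, 10.8 and 4.67 TPM. Orai1 lay below both Orai3 and Orai2, with log2 ratios of -1.36 ± 0.24 and -2.84 ± 0.39. On counts of the M4 table the ratio of Orai1 to Orai2 was -0.01 and was not called.

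In all, 37 ratios between members, or between a member and a related gene, were computed, and 27 met the rule. The gene named first in the ratio was higher in 22 and lower in 5, among them Dok1 against Dok2 and Orai1 against Orai2 and Orai3. The size of a ratio depended on the table: 16 of the 27 moved by over 1.5-fold on counts of the M4 table, and 13 on the expected counts, which are not scaled for length. The direction of each ratio within the 3 libraries is description, since 3 libraries cannot go below p = 0.25 in an exact two-sided sign-flip test. Ratios that did not meet the rule included Map2k1 over Map2k2 (0.49 ± 0.34), Rasa2 over Rasa1 (-0.49 ± 0.95), Sos1 over Sos2 (-0.92 ± 0.22), Cd5 over Cd6 (-0.33 ± 0.11) and Ppp3ca over Ppp3cc (0.04 ± 0.10).

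**Figure D2:**
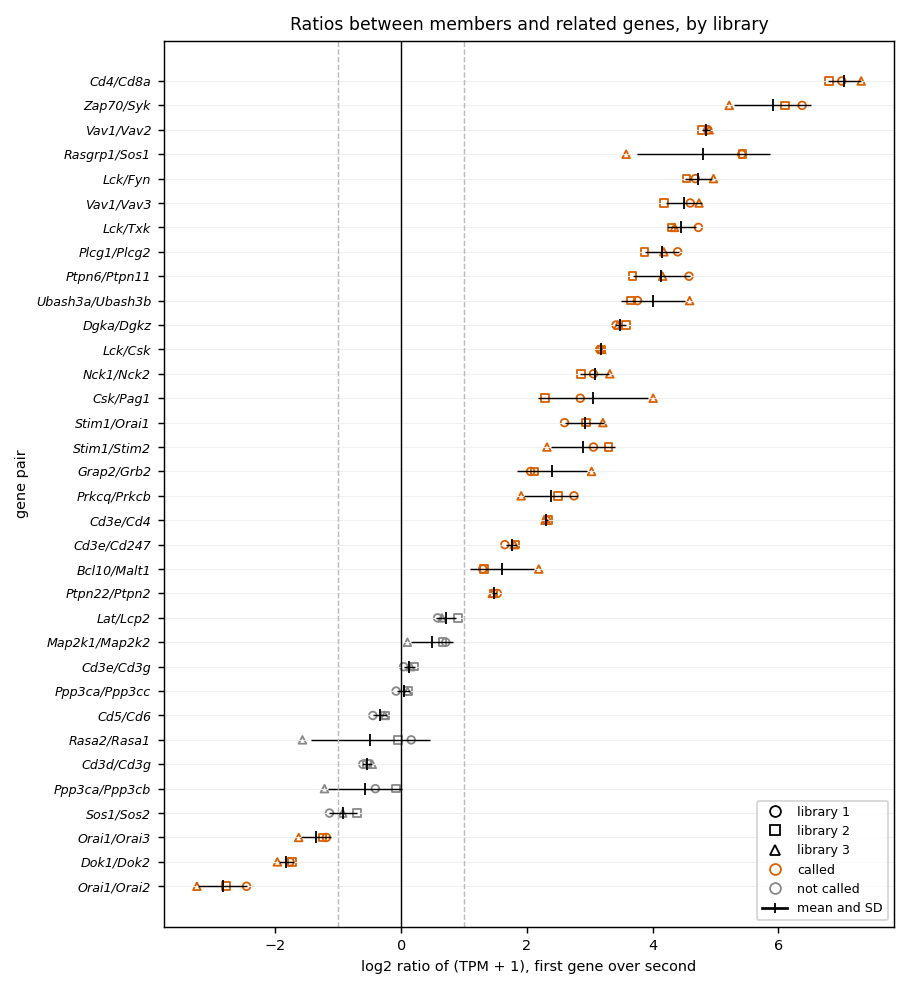
Log2 ratio of (TPM + 1) for 34 of the 37 gene pairs in each library, with the mean and SD over the 3 libraries as a black tick and bar. Orange symbols mark the 25 pairs shown that met the rule and grey symbols those that did not, and dashed lines mark log2 ratios of -1 and 1. Zap70 over Syk, Rasgrp1 over Sos1 and Rasa2 over Rasa1 have library 3 set apart to the left.

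The same libraries were then compared gene by gene for differences beyond counting. Each library held 17494800 to 20942759 expected counts (estimated read counts) in annotated genes, and the member with the fewest, Orai1, had 102 to 297. All 47 members differed between the libraries by a Pearson chi-square test of rounded expected counts against Poisson sampling, with edgeR TMM scaling and Benjamini-Hochberg adjusted p under 0.05 over 14877 genes. Of all those genes 63.9% differed, and 80.3% of the genes with a mean count at least that of Orai1 (204). At these counts the test picks up small differences. For Cd5 the adjusted p was 0.0387 and the largest deviation of any library -0.05 on the log2 scale. Without library 3, 29 members still differed, against 30.2% of the genes tested then. These p-values bear on the 3 libraries only.

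Library 3 was the most deviant library for 29 members. The share of all genes tested for which it was so is not given here. That limit also holds for the Ras/PKC branch count of most deviant libraries below. Of the 47 members, 22 differed and were lowest in library 3, against 29.8% of all genes tested. Another 18 differed and were highest there, against 24.3%. Those shares are taken over genes that did not differ too, while all 47 members differed. Of the 9501 genes tested that differed, 4430 were lowest and 3619 highest in library 3. Within the receptor group, 0 of 9 were lowest in library 3 and 7 were highest. In the Ras/PKC branch 11 of 13 were lowest there and 2 were highest, Bcl10 and Sos1, and library 3 was the most deviant library for all 13. The kinases had 2 lowest and 3 highest in library 3, the adaptors 7 and 2, and the phosphatases 2 and 4. The median log2 deviation of library 3 from the mean of libraries 1 and 2 was 0.20 in the receptor group, 0.05 in the kinases, -0.15 in the adaptors, 0.07 in the phosphatases and -0.50 in the Ras/PKC branch. Over all genes tested that median was 0.01. The receptor median stayed above 0 under every other scaling, table and GC trend tried, at 0.06 to 0.29. The kinase median was -0.04 without the trend on the highest-GC window, and the adaptor median was 0.01 in the M4 table and 0.06 without the trend on whole-transcript GC, so neither group had a settled direction. Nor did the Ras/PKC branch, whose median was 0.15 without the trend on the highest-GC window, and lay between -0.42 and -0.51 under the other alternatives.

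The members that lay furthest down in library 3 were Map2k1, Rasgrp1, Orai1, Zap70 and Rasa2. Map2k1 was 4.23-fold lower in library 3 than in the mean of the others, at 23.3 scaled CPM against 105 and 92.2. Rasgrp1 was 3.17-fold lower, at 113 against 342 and 376. Orai1 was 2.33-fold lower and Zap70 2.30-fold lower. Rasa2 was 2.04-fold lower. These 5 members make 10.6% of the set, and 13.6% of all genes tested were lower in library 3 by as much. The share among the members was thus below that in the tables as a whole. Prkcq followed with a log2 deviation of -0.78. In the M4 table, counted separately by the depositors, Map2k1, Rasgrp1, Orai1, Zap70 and Rasa2 deviated in library 3 by -1.93, -1.51, -1.69, -0.81 and -1.22. In the library of each member's largest deviation, the M4 counts deviated with the same sign for 42 of 47 members, but the most deviant library was the same in both tables for only 29.

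**Figure D3:**
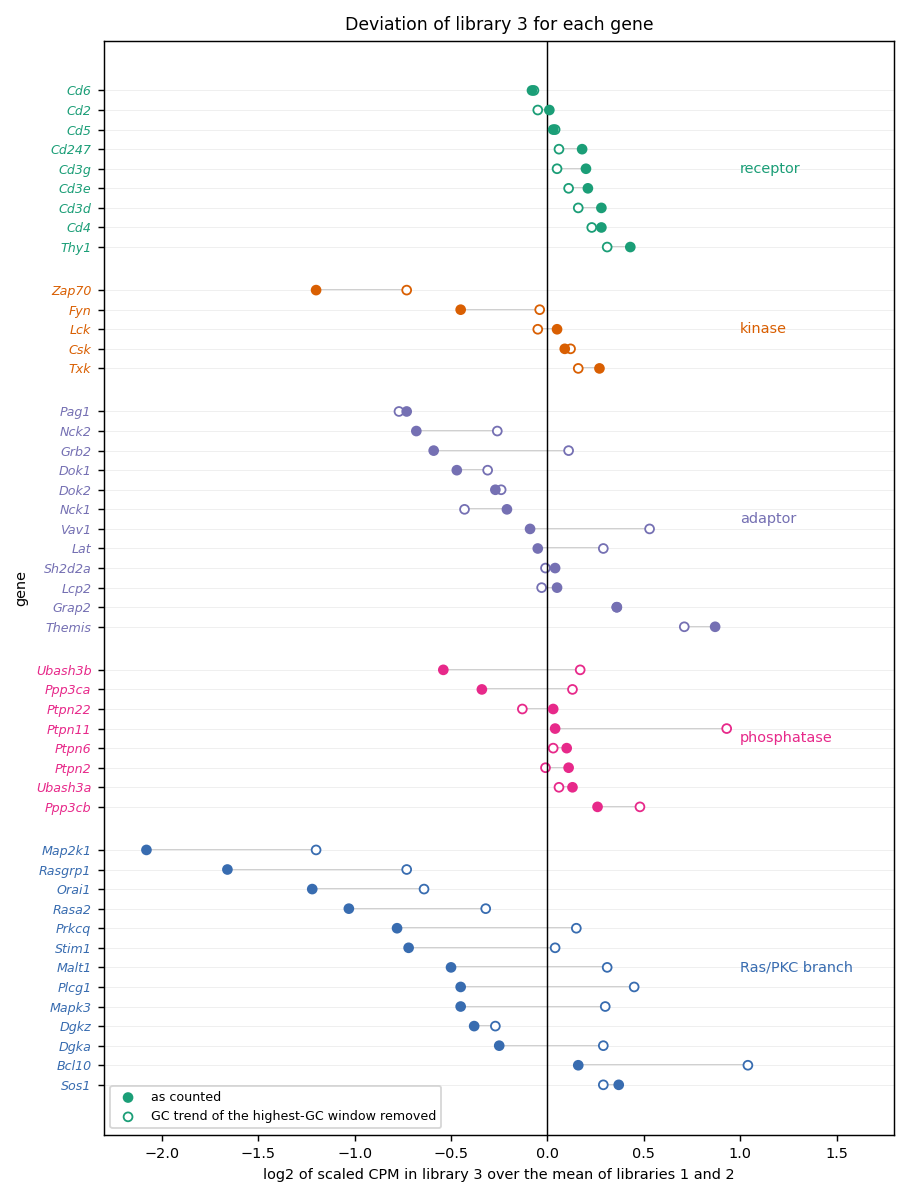
Log2 of scaled CPM in library 3 over the mean of libraries 1 and 2 for each of the 47 genes, ordered within the 5 groups. Filled points are the counts as deposited and open points the same after the trend on the highest-GC window of the transcript was removed. Filled points of the Ras/PKC branch reach down to -2.08 for Map2k1, and several of its open points lie right of 0.

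Base composition moved with the deviation of library 3. For each gene the highest GC content of any 200-base window of its most abundant transcript was taken. The median was 60.5% in the receptor group, 66.0% in the kinases, 65.5% in the adaptors, 69.0% in the phosphatases and 75.5% in the Ras/PKC branch. Across the 47 members Spearman's rho between this GC content and the deviation of library 3 was -0.66. Across all 14877 genes tested it was -0.47. These are correlations across genes of the same 3 libraries and are given as description. Of the 20 members at 70% or more, 17 were lowest in library 3, with a median deviation of -0.52, and the 3767 genes tested in that range had a median of -0.71. Among the 9 members under 60% the median deviation was 0.20, and it was 0.16 among 5160 genes.

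Once the trend of each library on this GC content was removed, an adjustment chosen after seeing the data, the Ras/PKC branch had 5 genes lowest and 7 highest in library 3. Its median deviation was then 0.15, with the sign turned. Prkcq went from -0.78 to 0.15. In the branch Map2k1, Rasgrp1, Orai1, Rasa2 and Dgkz stayed lowest in library 3, at -1.20, -0.73, -0.64, -0.32 and -0.27. Members of other groups that stayed lowest there included Pag1 and Zap70, at -0.77 and -0.73. The highest deviations of library 3 were then those of Bcl10 (1.04) and Ptpn11 (0.93). With a trend on the GC content of the whole transcript, 10 of 13 branch genes were lowest in library 3 and the branch median was -0.51. The part of base composition in the deviation of library 3 was not tested beyond these adjustments.

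The start sites of the branches also differed in composition. The 250 bases upstream of the start were read from RefSeq (GRCm38.p6) for the 35 members that have an entry, taking the start nearest to that of the leading transcript. Stretches are shown, for the receptor chain Cd3d, the scaffold Lat, the kinase Zap70 and the branch genes Rasgrp1 and Map2k1, with each CG dinucleotide in capitals. They are written 5′ to 3′ on the strand of the gene and stop where an annotated exon begins.
Cd3d, chr9:44981536-44981785, plus strand: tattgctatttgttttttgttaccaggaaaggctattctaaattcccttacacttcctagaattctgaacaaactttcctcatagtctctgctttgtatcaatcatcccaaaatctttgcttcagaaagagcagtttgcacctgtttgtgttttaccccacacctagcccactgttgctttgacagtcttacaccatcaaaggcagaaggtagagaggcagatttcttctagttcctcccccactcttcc
Lat, chr7:126369571-126369818, minus strand: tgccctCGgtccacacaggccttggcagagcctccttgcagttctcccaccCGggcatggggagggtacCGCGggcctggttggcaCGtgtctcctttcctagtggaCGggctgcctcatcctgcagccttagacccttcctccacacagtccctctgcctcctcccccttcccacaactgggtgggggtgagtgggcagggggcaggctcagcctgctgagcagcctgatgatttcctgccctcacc
Zap70, chr1:36761548-36761797, plus strand: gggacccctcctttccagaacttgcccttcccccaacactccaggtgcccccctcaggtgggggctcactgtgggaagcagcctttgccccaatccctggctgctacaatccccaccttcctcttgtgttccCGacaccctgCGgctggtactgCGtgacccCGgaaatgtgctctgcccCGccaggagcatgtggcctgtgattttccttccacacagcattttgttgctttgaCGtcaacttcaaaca
Rasgrp1, chr2:117343002-117343127, minus strand: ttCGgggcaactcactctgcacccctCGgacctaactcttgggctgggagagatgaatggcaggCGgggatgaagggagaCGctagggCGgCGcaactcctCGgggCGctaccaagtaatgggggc
Map2k1, chr9:64253632-64253855, minus strand: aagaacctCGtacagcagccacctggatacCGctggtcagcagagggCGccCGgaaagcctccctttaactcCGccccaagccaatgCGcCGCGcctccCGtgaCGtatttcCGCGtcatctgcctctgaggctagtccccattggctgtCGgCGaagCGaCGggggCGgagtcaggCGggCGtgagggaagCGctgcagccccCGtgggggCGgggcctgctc
The Cd3d window held 0 CG dinucleotides in 250 bases, and those of Lat and Zap70 held 6 each. The full windows of Rasgrp1 and Map2k1 held 21 and 24, of which the stretches shown, free of annotated exons, held 8 and 22. All 11 Ras/PKC branch promoters that were read had 10 or more, with a median of 24. Of these windows only those of Dgka and Sos1 overlapped no annotated exon, so the other counts can include exon bases. The Prkcq window, 11172132 to 11172381, lay past the start of its leading transcript at 11172108. For Dgkz the start read was 2037 bases from that of the leading transcript. In other groups it was 50889 bases away for Grap2, 11586 for Csk, 8669 for Grb2, 5555 for Ptpn6 and 4047 for Ubash3a. Counts for these genes therefore do not describe the bases next to the start of the leading form. None of the 5 receptor promoters had 10 or more CG dinucleotides, with a median of 3 and a highest count of 7. Among all 32851 promoters of the RefSeq table, 37.8% had 10 or more. The kinases had 2 of 5, the adaptors 1 of 8 and the phosphatases 2 of 6.

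**Figure D4:**
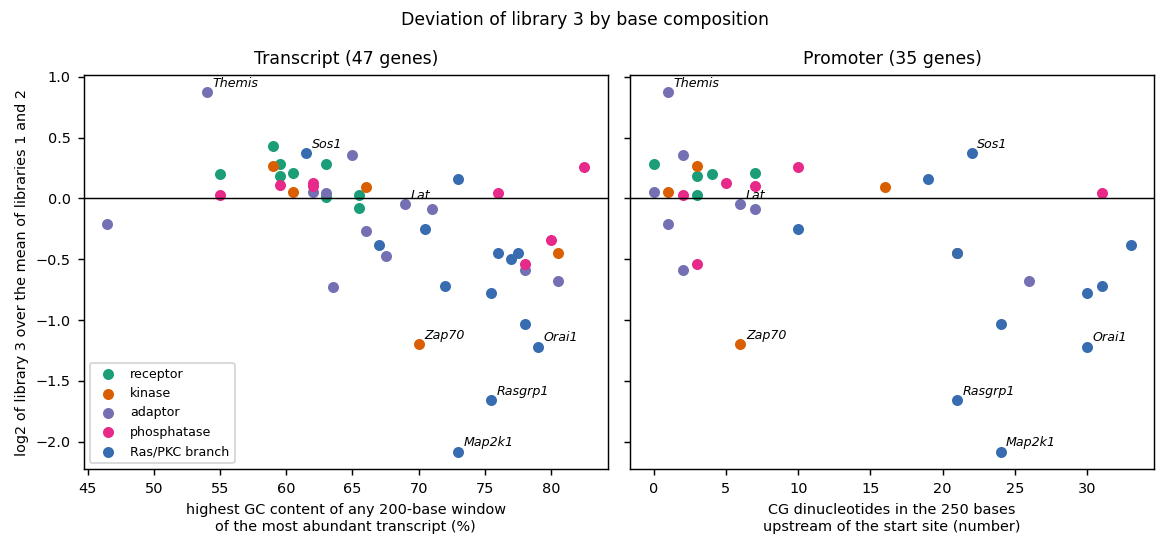
Deviation of library 3, as log2 over the mean of libraries 1 and 2, against base composition, 1 point per gene and coloured by group. The left panel shows the highest GC content of any 200-base window of the transcript for 47 genes, and the right panel the number of CG dinucleotides in the 250 upstream bases for 35 genes. Map2k1, Rasgrp1 and Orai1 lie at high GC and high CG number, Zap70 at 70% GC but only 6 CG dinucleotides, and Sos1 has 22 CG dinucleotides with a deviation of 0.37.

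Short motifs were searched in the same upstream windows, on both strands. GGGCGG, the letters of a GC box, was present in 10 of 11 Ras/PKC branch windows and in 1 of 5 receptor windows, against 32.7% of all promoters, and it overlaps the CG count by its own letters. CAGGTG, an E-box of the kind that E proteins bind, was present in 4 of 5 receptor windows, those of Cd3d, Cd3g, Cd247 and Cd5, and in 17.2% of all promoters. Of the 35 members with a window, 13 held it. CGGAAG, the core of an ETS site, was in 3 of 35 members and 13.6% of promoters. TGTGGT, a RUNX site, was in 3 of 35 and 14.0%. TATAAA was in 1 of 35, Grb2, and 12.4%. The start read for Grb2 was 8669 bases from that of its leading transcript. These matches are descriptions of letters in 250 bases, and no binding was measured.

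Transcript estimates were read next, to see which forms of each gene the levels came from. A leading transcript with 80% or more of the gene's TPM was assigned for 16 of 47 members, and for 15 the leading share was under 50%. The leading transcript was annotated as protein coding in 44. Cd2-201 took 98.1 ± 0.35% of Cd2, Cd3g-201 97.2 ± 0.21% of Cd3g, and Vav1-201 93.6 ± 1.02% of Vav1 (SD, 3 libraries). The other 3 members were Thy1, Ubash3a and Dgkz. Their leading forms were Thy1-203 (37.7 ± 5.30%) and Ubash3a-204 (43.0 ± 4.15%), annotated as processed transcripts, and Dgkz-212 (27.7 ± 8.31%), annotated as a nonsense-mediated decay transcript. By expected counts the coding Thy1-201 (31.6%) and Dgkz-203 (37.3%) led instead, and the leading form of Dgkz also changed without library 3. Shares of overlapping transcripts are model estimates, and a short transcript weighs more in TPM than in counts.

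Lck was divided between starts far apart. Lck-202, which begins at position 129573641 of chromosome 4 on the minus strand, took 47.9, 46.2 and 50.9% of the gene's TPM. Lck-208, which begins 15269 bases downstream at 129558372, took 27.4, 25.9 and 17.3%. Lck-207, a retained intron form that begins close to it at 129558087, took 21.2, 22.8 and 26.4%. In textbook accounts the distal Lck promoter serves mature T cells and the proximal promoter thymocytes. Of 4 thymocyte genes, Rag1 and Ptcra lay at no more than 0.14 TPM in any library and Rag2 had no count. The fourth, Dntt, was at 0.89, 1.75 and 2.23 TPM from 24, 43 and 55 counts. In expected counts, Lck-208 had 10248, 8290 and 6121, and Lck-202 had 18273, 15063 and 18369.

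For Zap70 and Rasgrp1 the forms did not move together in library 3. The coding Zap70-201 had 4442, 3561 and 1359 expected counts, while Zap70-204, a retained intron form that starts further down the gene, had 422, 473 and 463. Its share of the gene's TPM accordingly stood at 13.3, 17.2 and 35%. The highest GC content of any window was 70% in Zap70-201 and 63.5% in Zap70-204. Rasgrp1-201 had 5438, 4499 and 798 expected counts, and Rasgrp1-207, whose start lies a short way downstream, had 1048, 1769 and 1064. For Map2k1 a single form dominated in each library, Map2k1-201 with 96.8, 97.1 and 80.1%.

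Grb2 and Ptpn11 changed their leading form between libraries. Grb2-201 took 100, 36.1 and 0% of the gene, and Grb2-203, which begins at another start, 0, 50.2 and 78.3%. Their highest windows were 78.0 and 64.0% GC. Ptpn11-202 took 84.7, 70.2 and 39.6%, and Ptpn11-201, with a nearby start, 13.4, 29.1 and 58.7%. Their highest windows were 76.0 and 66.5% GC. In Zap70, Grb2 and Ptpn11 the leading form, which has the higher GC window of the forms compared, had its smallest share in library 3, and in Rasgrp1 the windows of forms 201 and 207 were close, at 75.5 and 74.5%. Other members went the other way. Rasa2-201, at 78% GC, took 41.1, 40.1 and 57.8%, and Ppp3ca-202, at 80% GC, 35.4, 32.0 and 56.9%. For 29 members the 2 most abundant forms, of those at 5% or more, differed in their highest window, and the form with more GC had its smallest share in library 3 in 16, its largest there in 7 and a share between those of the other libraries in 6.

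**Figure D5:**
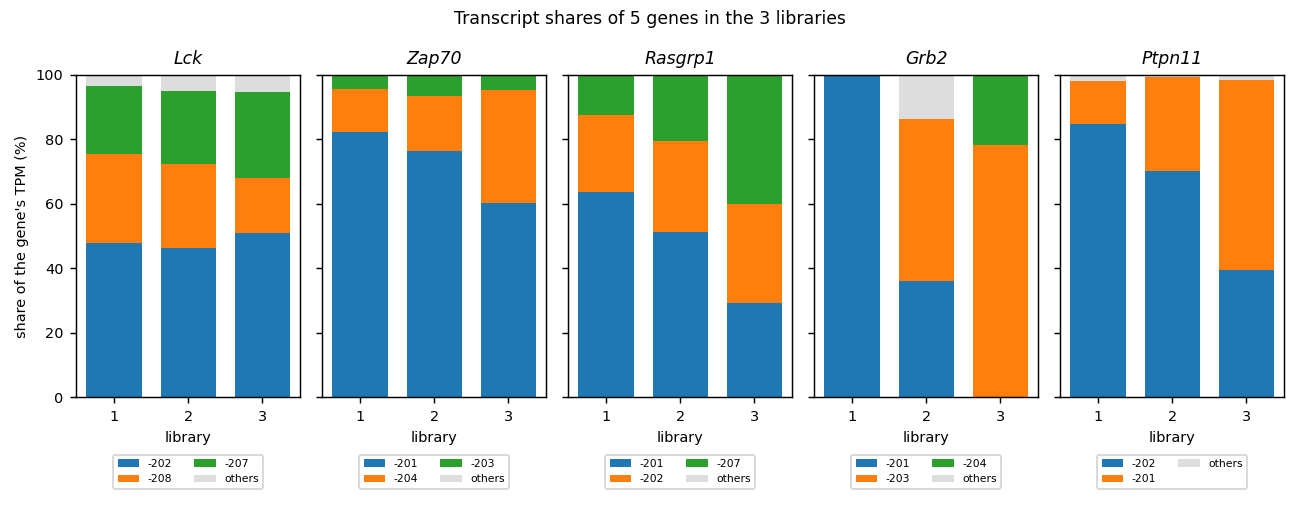
Share of the gene's TPM, in percent, assigned to each transcript of 5 genes in libraries 1, 2 and 3, with transcripts under 5% on average in grey. Lck keeps Lck-202 (blue) as its leading form throughout, while blue, the leading form by mean share, is smallest in library 3 for Zap70, Rasgrp1, Grb2 and Ptpn11.

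Some members share their place in the genome with other transcribed genes, and the sources used here do not say whether the counting used strand. Dok2 overlaps Xpo7 (40.7 TPM) on the opposite strand, Map2k1 overlaps Uchl4 (9.65 TPM) and Plcg1 overlaps Zhx3 (4.58 TPM), and Ppp3cb overlaps an antisense gene at 2.83 TPM. Reads in stretches where exons of both partners overlap cannot be told apart without strand. On the same strand Grb2 overlaps a processed pseudogene at 11.0 TPM, above its own 9.90 TPM, and Lat overlaps the microRNA gene Mir7058, listed at 82.8 TPM. Grap2, Pag1, Ubash3b and Nck2, at 56.0, 19.5, 16.6 and 8.73 TPM, overlap predicted genes on the same strand, an rRNA gene in Pag1, at 11.0, 7.74, 4.08 and 2.47 TPM. Levels of these members are uncertain as far as exons are shared, most of all that of Grb2. How far they are shared is not given here.

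The wider pathway was read from a list of 55 further genes of receptor signalling. Of these 51 reached 1 TPM in each library, 17 had a mean of 100 TPM or more, and the median of their means was 32.0 TPM. The highest was Trbc2, a constant region gene of the receptor beta chain, at a mean of 4125 TPM. Trac and Trbc1, the other constant region genes listed, followed at 2933 and 2178 TPM, and then Ptprc, the phosphatase that keeps Lck active, at 1385 TPM. Under 1 TPM in at least 1 library were Cd8a, Card9, Plcg2 and Nf1. Between the libraries 46 of the 55 differed, against 63.9% of all genes tested. Of the 55, 25 (45.5%) differed and were lowest in library 3, and 16 (29.1%) differed and were highest. Of all genes tested 29.8% and 24.3% did so, with 4430 lowest and 3619 highest among the 9501 that differed.

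The label of the cells was checked against markers. All 6 regulatory T cell markers were detected in each library, with Foxp3 at 77.6, 86.2 and 59.2 TPM, Il2ra at 302, 276 and 275 TPM and Ikzf2 at 391, 275 and 326 TPM. The 6 include Trac and Cd4, which are not particular to regulatory cells, and Cd4 is itself a member. Markers of other CD4 T cells were not read. Outside the erythroid genes, markers of other cells had mean levels of at most 45.1 TPM (Cd79b). The erythroid Hbb-bs and Hba-a1, at 494 and 312 TPM, lay above Foxp3, Il2ra and Ctla4, at means of 74.4, 284 and 268 TPM. Of 7 B cell markers 6 were detected, summing to 70.7 to 82.2 TPM, with Pax5 under 1 TPM. Of 6 myeloid markers 3 were detected, summing to 25.3 to 35.5 TPM, with Itgam and Spi1 at a mean under 1 TPM. Of 4 NK cell markers 2 were detected, summing to 6.35 to 10.7 TPM, and Ncr1 had at most 1 count. For CD8 T cells 1 of 2 was detected, with sums of 16.7 to 22.3 TPM, and for gamma-delta T cells 2 of 3, with sums of 9.08 to 10.4 TPM. All 3 erythroid genes were detected, summing to 615 to 1017 TPM, and they were highest in library 3. The part of such cells in the members' levels was not tested. Fyn, Ptpn6, Plcg1 and other members that other blood cells also express carry that limit, while Plcg2 and Syk, at 1.24 and 1.39 TPM, are themselves genes of B and myeloid cells.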

How the data were processed

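PolyA RNA of 1 regulatory T cell sample was sequenced as 3 technical replicate libraries, deposited as gene and transcript tables. The authors deposited expected counts (estimated read counts), TPM and FPKM per gene and per transcript for mm10 with GENCODE M21, per the file headers and the deposited text notes. The transcript tables give each transcript's percent of its gene's TPM, as deposited. A second gene table deposited by the authors holds whole-number counts for GENCODE M4. The aligner, counter and strand setting were not given in the sources used here. No table was altered: 26345 rows that name no annotated gene (0.231 to 0.291% of expected counts) were left out.

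Levels are deposited TPM, as means and SDs over the libraries. A pseudocount of 1 was used for ratios. Library differences were tested on expected counts rounded to whole numbers, for every gene averaging 10 counts or more, by a Pearson chi-square test with 2 degrees of freedom (scipy 1.17.1) and TMM sizes (edgeR 4.0.16), and the test was tried on simulated counts. Scaled CPM are counts divided by those sizes. The totals were 20942759, 18402348 and 17494800 expected counts in libraries 1, 2 and 3 and 6339932, 5775622 and 5056487 counts in the M4 table. Alternatives used DESeq2 1.42.0 size factors, total counts, other limits, FPKM rescaled to the TPM total, GC trends (lowess, statsmodels 0.14.6) and each library left out.

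The members, their groups, the pairs and the lists were chosen with earlier results of these data known, and the observations on base composition, promoters and transcripts were chosen after the values were seen. The rule for naming genes was to account for all 47 members, giving values in every library for the 3 highest and the lowest of each group, the 8 with the largest deviation and the members of called pairs, and of the other pathway genes the 4 highest and those under 1 TPM. No protein sequences were used here, and 3 of the gene pairs are counted but not reported by name.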

Additional observations from a re-analysis of the deposited data

How the results depend on the processing

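All 47 members were detected under every setting tried except a limit of 5 TPM (45), and between 16 (limit of 200 TPM) and 31 (50 TPM) were called highly expressed, against 24. Differences between libraries were found for 43 to 47 members under other scalings, filters, tables and GC trends, and for 44, 39 and 29 when library 1, 2 or 3 was left out. Of all genes tested, 56.7 to 67.7% differed under the other scalings, the M4 table and the GC trends. With library 1, 2 or 3 left out, 51.4, 53.9 and 30.2% of them did. No such share is given here for the other count limits. Library 3 was the most deviant library for 29 members and for 26 to 32 under the alternatives, with no share over all genes tested beside these counts. Of gene pairs 27 were called, and 23 to 28 under the alternatives. Of the called pairs Cd3e over Cd4 changed sign, at -0.74 in counts of the M4 table. Of pairs not called, 5 changed sign in that table, 3 on expected counts and 2 without library 3. Sos1 over Sos2 was then 0.45 and 0.33, and Rasa2 over Rasa1 0.57, 0.78 and, without library 3, 0.06. Without the trend on the highest-GC window the sign in library 3 turned for the Ras/PKC branch median and for Prkcq, both at 0.15. Among other members it turned for Plcg1, Malt1, Mapk3 and Dgka, to 0.45, 0.31, 0.30 and 0.29. Lck turned the other way, from 0.05 to -0.05. The kinase median turned to -0.04. The adaptor median turned to 0.01 in the M4 table and to 0.06 without the trend on whole-transcript GC. Leading shares of 80% were held by 16 members, and by 12 to 22 under the alternatives. The deviation of a single library has no value when a library is left out. No paired analysis was possible because there is 1 group. Counting errors are small at these depths, and the libraries share 1 animal, so nothing here bounds the spread between animals.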

Other observations

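Genes of the wider pathway named here were chosen after their values were seen. The Ras GTPase activator gene Rasal3 had levels of 137, 136 and 47.03 TPM in library order. Ndfip1, an activator of the ubiquitin ligase Itch that limits T cell responses, stood at 262, 219 and 64.3 TPM. Their log2 deviations in library 3 were -2.12 and -1.86, beside -1.66 for Rasgrp1 and -2.08 for Map2k1. Of all genes tested 13.6% were 2-fold or more lower in library 3. The highest GC content of any window was 55.0% in Rasal3 and 76.0% in Ndfip1. By contrast Skap1 and Fyb, adaptors that join receptor signals to integrins, were at 687, 685 and 752 TPM and at 565, 552 and 632 TPM, with deviations of 0.16 each.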
